A study of Mus musculus with 8 samples.

Results

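Syndecans and glypicans are the heparan sulfate proteoglycans of the cell surface, and all 10 mouse genes of these families (Sdc1 to Sdc4 and Gpc1 to Gpc6) were followed in lung RNA after bleomycin. They were picked out of the counted table by gene symbol and make up 10 of its 18824 genes; 9 of the 10 had enough counts to be tested. The series compared wild-type mice (WT_BLM, 4 libraries) with Slc15a3-/- mice (KO_BLM, 4 libraries); Slc15a3, also called PHT2, encodes a lysosomal transporter of histidine and small peptides. Mice of both groups were 8 weeks old, received bleomycin by the trachea on day 0 (2 mg/kg in 50 µl of saline) and were killed at day 21; bleomycin breaks DNA and is used to scar rodent lung. Both groups were injured in this way, and saline-treated mice were not analysed here. The labels name no cell type to which the deletion is limited. They also do not say whether the 4 libraries of a group came from separate mice, so the p-values below measure the spread between these libraries.

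A syndecan spans the membrane once, carries heparan sulfate chains near its outer tip and binds PDZ proteins with its short cytoplasmic tail. A glypican has a folded globular core held in the outer leaflet by a lipid (GPI) anchor, with its chains close to the membrane. The sugar chains of both bind growth factors, chemokines, Wnt and Hedgehog proteins and matrix, so they act as co-receptors and as stores of ligand in epithelium, fibroblasts and leukocytes of the lung. Proteases and the anchor-cutting enzyme Notum release the outer part from the cell.

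Slc15a3 itself lay between 45.8 and 55.7 CPM (counts relative to the TMM-scaled total of the library) in WT_BLM and between 0.279 and 0.938 CPM in KO_BLM, in the direction the labels give. Total counts were 18878835 to 20180831 per WT_BLM library and 17627999 to 18471445 per KO_BLM library. Of 14746 genes tested with edgeR's quasi-likelihood test, 41.5% had a Benjamini-Hochberg adjusted p under 0.05 and are called changed here. Called genes lower in KO_BLM made up 20.8% and those higher 20.7% of the genes tested, and 40.9% of the genes had CPM ranges that did not overlap between the groups. With library totals alone in place of TMM scaling, the median log2 fold change of all genes moved by 0.09, and genes higher in KO_BLM made up 62.7% of the calls (3789 higher, 2253 lower) in place of 50.0% (3057 higher, 3061 lower).

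Of the 9 members tested, 5 fell in KO_BLM (Sdc1, Sdc3, Sdc4, Gpc1 and Gpc4) and 0 rose, beside 20.8% and 20.7% of all genes. The same 5 members had ranges that did not overlap, beside 40.9% of all genes. The remaining 4, Sdc2, Gpc2, Gpc3 and Gpc6, were not called and had fitted log2 fold changes above 0. The median log2 fold change was -0.39 over the 9, -0.40 over the 4 syndecans and 0.19 over the 5 glypicans, beside 0.0025 over all tested genes. Lung is a mixture of cells, and fewer cells of a type cannot be told apart from less RNA per cell in any of these values.

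The 250 bases before the transcription start are printed for the 3 members that fell in every fit tried and had a RefSeq promoter entry. They are also printed for Gpc3, the neighbour of Gpc4 on the X chromosome, to show the DNA just upstream of genes of unlike behaviour. The sequences are from RefSeq on GRCm38.p6, read 5′ to 3′ along the gene's own strand. They come from chr4:130792287-130792536 on the plus strand (Sdc3), chr2:164443189-164443438 on the minus strand (Sdc4), chrX:52164924-52165173 on the minus strand (Gpc4) and chrX:52613975-52614224 on the minus strand (Gpc3). Capitals mark matches, on either strand, to 5 short motifs that were searched.
Sdc3: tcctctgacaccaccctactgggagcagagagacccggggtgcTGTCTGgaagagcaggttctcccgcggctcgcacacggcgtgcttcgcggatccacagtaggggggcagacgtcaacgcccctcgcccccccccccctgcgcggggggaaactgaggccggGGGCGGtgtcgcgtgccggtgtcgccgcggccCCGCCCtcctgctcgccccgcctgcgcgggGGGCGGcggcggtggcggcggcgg
Sdc4: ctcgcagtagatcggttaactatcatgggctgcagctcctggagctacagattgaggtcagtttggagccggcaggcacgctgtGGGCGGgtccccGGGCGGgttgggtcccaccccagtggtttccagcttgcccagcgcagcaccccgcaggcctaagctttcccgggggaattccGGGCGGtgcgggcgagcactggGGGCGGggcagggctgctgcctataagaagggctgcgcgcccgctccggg
Gpc4: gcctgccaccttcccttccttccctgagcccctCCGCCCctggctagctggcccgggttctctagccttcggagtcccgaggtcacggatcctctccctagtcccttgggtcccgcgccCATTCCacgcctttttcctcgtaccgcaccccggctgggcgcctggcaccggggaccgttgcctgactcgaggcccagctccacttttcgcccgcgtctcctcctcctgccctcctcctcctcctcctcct
Gpc3: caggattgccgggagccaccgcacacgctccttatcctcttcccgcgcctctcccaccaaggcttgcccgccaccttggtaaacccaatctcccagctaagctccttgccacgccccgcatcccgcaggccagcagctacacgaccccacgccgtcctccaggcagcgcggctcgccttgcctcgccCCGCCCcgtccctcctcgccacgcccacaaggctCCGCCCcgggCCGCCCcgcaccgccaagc

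The motifs were the GC box bound by Sp1-type factors (GGGCGG), the AP-1 site (TGANTCA), the SMAD box (CAGACA), the TEAD site (GGAATG) and the TATA box (TATAAA); no 2 of their matches overlapped in these 4 windows. The GC box stood 3 times in Sdc3, 4 times in Sdc4, 3 times in Gpc3 and 1 time in Gpc4, and 32.7% of the 32851 promoters of the same length held at least 1. The capitals nearest the left end of Sdc3, at -207, are its SMAD box, which 17.1% of all promoters hold. The TEAD site in Gpc4, at -131, has a counterpart in 12.6% of all promoters. The AP-1 letters (6.75% of all promoters) and the TATA letters (12.4%) were not in these 4 windows. G and C made up 76.4% of the Sdc3 window, 71.6% of Gpc3, 68.4% of Gpc4 and 68.0% of Sdc4, beside a median of 52.4% over all promoters. Of the 10 members 7 had an entry in the table. Sdc2, Gpc1 and Gpc6 had none.

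Among the glypicans, Gpc1, a GPI-anchored co-receptor for fibroblast growth factors, differed most. Gpc1 (chromosome 1, 92831645 to 92860211, plus strand, GRCm38) was at 93.2, 94.5, 95.1 and 62.1 CPM in the WT_BLM libraries (replicates 1 to 4) and at 19.3, 29.9, 32.6 and 27.4 CPM in KO_BLM. All 4 KO_BLM libraries lay far under the lowest WT_BLM library, and within WT_BLM replicate 4 stood below the other 3. Gpc1 averaged 86.2 ± 16.1 CPM in WT_BLM and 27.3 ± 5.74 CPM in KO_BLM (SD, n = 4 each), 3.15-fold lower, which is -1.66 as a log2 fold change (SE 0.18, adjusted p = 0.000168 in edgeR). Exons of Gpc1 share 977 bases with Ankmy1 on the opposite strand, and Ankmy1 held 265 counts over the 8 libraries beside 8555 for Gpc1; whether the counting used strand is not given in the sources used here.

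Gpc4, a glypican that takes part in Wnt and fibroblast growth factor signalling, also fell. Gpc4 (chromosome X, 52051007 to 52164923, minus strand) was at 63.6, 52.9, 55.5 and 93.6 CPM in the WT_BLM libraries (replicates 1 to 4) and at 30.4, 34.2, 36.4 and 33.1 CPM in KO_BLM. Its KO_BLM libraries lay close together and under every WT_BLM library, and WT_BLM replicate 4, the low one for Gpc1, was the high one for Gpc4. The means were 66.4 ± 18.7 CPM and 33.5 ± 2.53 CPM (SD, n = 4 each), a log2 difference of -0.99 (SE 0.17, adjusted p = 0.00183 in edgeR).

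Gpc3, known for restraining Hedgehog signalling and for the overgrowth syndrome that follows its loss, was not called. Gpc3 (chromosome X, 52272426 to 52613974, minus strand) was at 200.02, 256, 161 and 189.9 CPM in the WT_BLM libraries (replicates 1 to 4) and at 274, 213, 286 and 218 CPM in KO_BLM. The groups overlapped because WT_BLM replicate 2 lay above KO_BLM replicates 2 and 4; the other 3 WT_BLM libraries lay below all of KO_BLM. The log2 fold change was 0.30 with a 95% interval of -0.04 to 0.64 (edgeR adjusted p = 0.139), and without WT_BLM replicate 2 it was 0.43 (edgeR adjusted p = 0.0328).

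The remaining glypicans were scarce: Gpc2 on chromosome 5 (138273657 to 138280026, minus strand), and Gpc5 and Gpc6, which follow each other on the plus strand of chromosome 14 (115092201 to 116525192 and 116924920 to 117979529). Gpc2, best known from developing neurons, averaged 3.19 ± 1.14 CPM in WT_BLM and 4.24 ± 1.02 CPM in KO_BLM (SD, n = 4 each), with a log2 interval of -0.25 to 1.07. Gpc6 averaged 4.48 ± 0.205 CPM and 5.10 ± 0.394 CPM, with a log2 interval of -0.14 to 0.51. The edgeR adjusted p was 0.290 for Gpc2 and 0.320 for Gpc6, and the groups overlapped for both. Gpc5 had 5 counts in WT_BLM and 5 in KO_BLM over 4 libraries each, with at most 3 in any library, and was not tested; that is at the limit of 3 counts per library under which a level is not read here. GENCODE places 2376 bases of another gene model, Gm43720, on the same strand as Gpc2 exons, so the reads of the Gpc2 row may be split or lost there.

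Sdc4, the broadly expressed syndecan of focal adhesions, and Sdc3, best known from nerve and muscle, fell among the syndecans. Sdc3 (chromosome 4, 130792537 to 130826318, plus strand) was at 303, 329, 291 and 248 CPM in the WT_BLM libraries (replicates 1 to 4) and at 216, 184, 199 and 144 CPM in KO_BLM. Sdc4 (chromosome 2, 164424247 to 164443188, minus strand) was at 303, 298, 249 and 337 CPM in WT_BLM and at 234, 227, 199.8 and 232 CPM in KO_BLM. For both genes every KO_BLM library lay under every WT_BLM library; the lowest library of each group was replicate 4 for Sdc3 and replicate 3 for Sdc4.

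Sdc3 averaged 293 ± 34.0 CPM in WT_BLM and 186 ± 30.8 CPM in KO_BLM (SD, n = 4 each), a log2 difference of -0.66 (SE 0.13, adjusted p = 0.00422 in edgeR). Sdc4 averaged 297 ± 36.2 CPM and 223 ± 15.9 CPM, a log2 difference of -0.41 (SE 0.10, adjusted p = 0.0114 in edgeR). Short stretches of Sdc3 exons, 48 and 415 bases, lie opposite 2 antisense gene models.

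Sdc1, the syndecan of epithelium and of plasma cells, fell by a similar size but less steadily. Sdc1 (chromosome 12, 8771396 to 8793716, plus strand) was at 421, 346, 358 and 452 CPM in the WT_BLM libraries (replicates 1 to 4) and at 264, 278, 339 and 324 CPM in KO_BLM. The highest KO_BLM library (replicate 3) was just below the lowest WT_BLM library (replicate 2), so the gap between the groups was small beside the spread within each. The means were 394 ± 50.7 CPM and 301 ± 35.8 CPM (SD, n = 4 each), or -0.39 on the log2 scale (SE 0.12, adjusted p = 0.0255 in edgeR). The Sdc1 call was lost in 8 of 17 alternative fits, among them library totals alone (edgeR adjusted p = 0.0662), limma on log2(FPKM + 1) with the filter (adjusted p = 0.0614) and edgeR without WT_BLM replicate 1 (0.0679), WT_BLM replicate 4 (0.0549), KO_BLM replicate 1 (0.0657) or KO_BLM replicate 2 (0.0821).

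Sdc2, the syndecan best known from mesenchyme and vessels (chromosome 15, 32920723 to 33034721, plus strand), was at 99.1, 83.7, 89.3 and 92.9 CPM in the WT_BLM libraries (replicates 1 to 4) and at 107, 109, 90.5 and 91.3 CPM in KO_BLM. KO_BLM replicates 1 and 2 were above every WT_BLM library, while replicates 3 and 4 lay inside the WT_BLM range. Sdc2 had a log2 fold change of 0.13 with a 95% interval of -0.08 to 0.33 (edgeR adjusted p = 0.294).

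**Figure D1:**
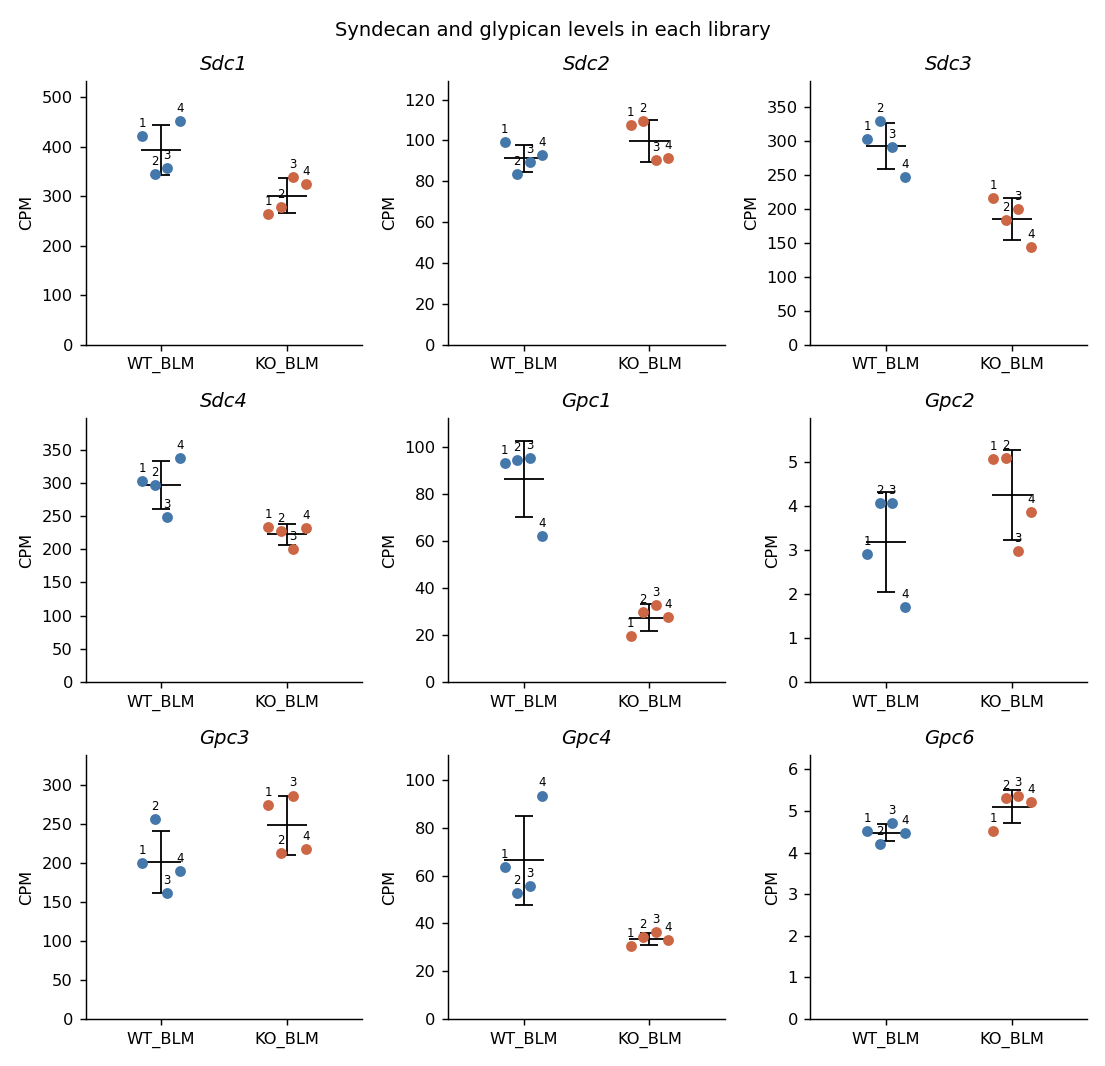
CPM (scaled counts, y axis from 0) of the 9 tested members in each of the 8 libraries; points are libraries with their replicate number, the wide line is the mean and the bars are 1 SD (n = 4). Gpc1, Gpc4, Sdc3, Sdc4 and Sdc1 have ranges that do not overlap, and WT_BLM replicate 4 stands low for Gpc1 (62.1 CPM) and high for Gpc4 (93.6 CPM).

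The plot of fold changes sets the 9 members side by side. Sdc3, Sdc4, Gpc1 and Gpc4 kept their call in all 17 alternative fits. The number of members called ran from 4 to 6 over these fits, and no member changed sign in any of them. Calls among all genes ran from 4494 (edgeR without KO_BLM replicate 2) to 6814 (DESeq2) over the same fits.

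**Figure D2:**
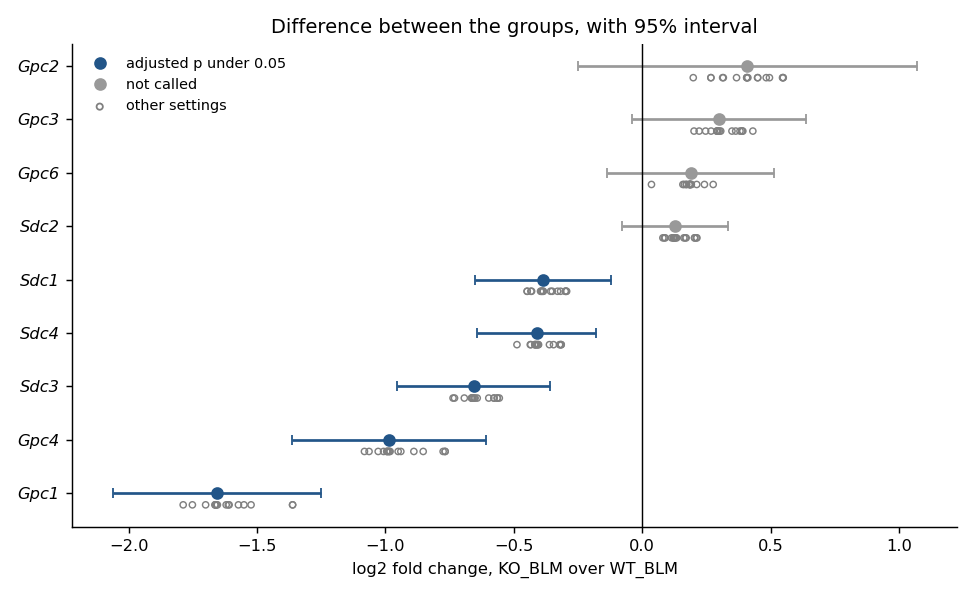
Log2 fold change of each tested member, KO_BLM over WT_BLM (x axis; filled points with the 95% interval of the edgeR fit), and below each the values of the alternative fits (open points). The 5 called members run from Gpc1 at -1.66 to Sdc1 at -0.39, and the intervals of the other 4 include 0.

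Levels of different genes were compared per length, as the deposited FPKM (counts divided by gene length and by the library's total). In WT_BLM, Sdc1 had the highest mean with 116 FPKM, then Sdc4 with 104 and Gpc3 with 86.4 FPKM. The ranges of neighbours in this order overlapped for Sdc1 and Sdc4 and for Sdc4 and Gpc3. Below them stood Sdc3 with 49.7 FPKM, Sdc2 with 26.7 FPKM, Gpc1 with 11.8 FPKM and Gpc4 with 10.9 FPKM, and only the last pair overlapped among these. Gpc2 was at 0.954 FPKM and Gpc6 at 0.136 FPKM, and Gpc5 was left out of the order at its counts.

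In KO_BLM, Gpc3 had the highest mean FPKM, 112, ahead of Sdc1 with 94.2 and Sdc4 with 83.1 FPKM; Gpc3 overlapped Sdc1, and Sdc1 overlapped Sdc4. Sdc3 with 33.3 FPKM overlapped Sdc2 with 30.9 FPKM, which it had stood clear of in WT_BLM. Gpc4 was at 5.90 FPKM, Gpc1 at 3.96 FPKM, Gpc2 at 1.33 FPKM and Gpc6 at 0.165 FPKM.

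Part of this order rests on the gene lengths behind the FPKM. The deposited values imply 5854 bases for Gpc4, 7119 for Gpc1, 31860 for Gpc6 and 2269 for Gpc3, while the joined GENCODE exons measure 2651, 5159, 6425 and 2690 bases. With the GENCODE lengths, an alternative added after the deposited lengths were seen, the mean of Sdc4 came above that of Sdc1 in both groups. Their ranges overlapped in both, and Sdc4 was above Sdc1 in 4 WT_BLM libraries and 3 KO_BLM libraries. In WT_BLM, Gpc4 then stood at 24.2 FPKM, overlapping Sdc2 at 25.1 FPKM and above Gpc1 at 16.3 FPKM in all 4 libraries; Gpc4 was above Gpc1 in KO_BLM under either set of lengths. Gpc6 at 0.676 FPKM in WT_BLM and 0.819 FPKM in KO_BLM then overlapped Gpc2 at 0.729 and 1.02 FPKM.

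The 4 syndecans summed to 296 ± 16.2 FPKM in WT_BLM (273 to 309) and 242 ± 7.66 FPKM in KO_BLM (235 to 250) (SD, n = 4 each). The 6 glypicans summed to 110.2 ± 18.3 FPKM in WT_BLM (94.1 to 136) and 124 ± 16.2 FPKM in KO_BLM (107 to 143). The syndecan sums did not overlap between the groups and the glypican sums did. These sums were not tested. They rest on library totals without TMM scaling, which moved the median log2 fold change of all genes up by 0.09. With the GENCODE lengths the glypicans summed to 115 ± 14.6 FPKM in WT_BLM and 115 ± 13.9 FPKM in KO_BLM, and the syndecans to 286 ± 16.0 and 233 ± 6.35 FPKM (SD, n = 4 each).

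Within the glypicans, Gpc3 made up 78.0% of the summed FPKM in WT_BLM (74.5% to 82.6%) and 90.7% in KO_BLM (88.9% to 92.6%). The share of Gpc1 was 10.8% in WT_BLM and 3.24% in KO_BLM, and that of Gpc4 10.2% and 4.82%. Within the syndecans, Sdc1 made up 39.0% and 38.9%, Sdc4 35.0% and 34.4%, Sdc3 16.9% and 13.8% and Sdc2 9.04% and 12.8%. With the GENCODE lengths Gpc3 made up 63.0% of the glypicans in WT_BLM and 82.1% in KO_BLM, and Gpc4 21.4% and 11.4%.

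**Figure D3:**
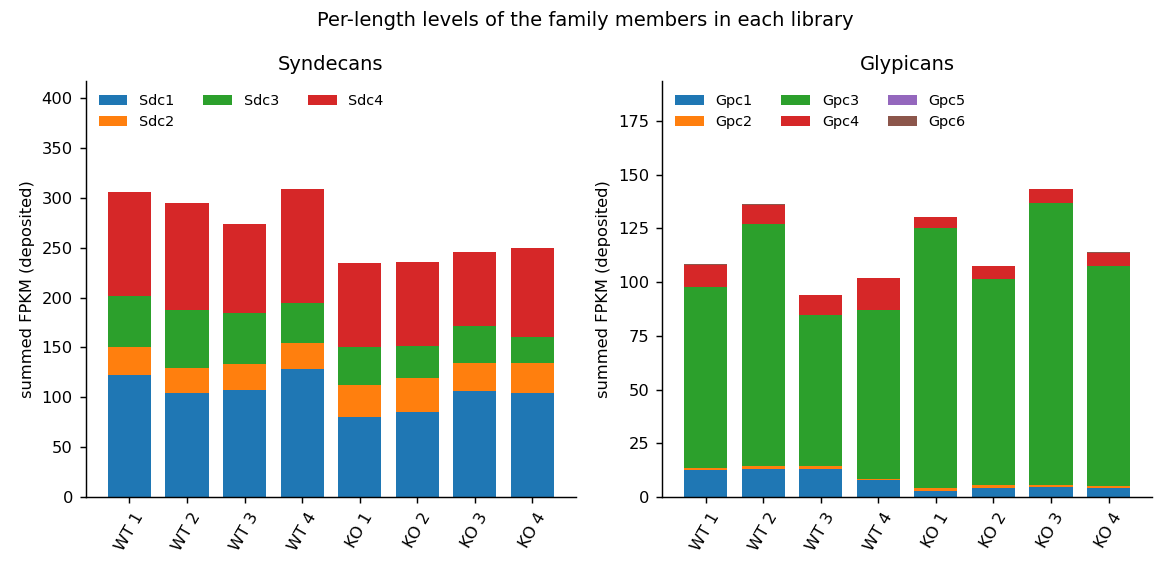
Summed FPKM of the 4 syndecans (left) and the 6 glypicans (right) in each library; each coloured block is 1 gene and the y axes start at 0. Gpc3 fills most of every glypican bar, and the syndecan bars of KO_BLM (235 to 250 FPKM) are all shorter than those of WT_BLM (273 to 309 FPKM).

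Ratios of relatives within a library do not depend on scaling, and gene lengths move their level but not their difference between the groups. They were computed for Sdc1 over Sdc3 and for Sdc2 over Sdc4, the closest relatives among syndecans, and for Gpc4 over Gpc3, which lie 107502 bases apart in the same direction on the X chromosome. A further planned pair, Gpc6 over Gpc5, had no value because Gpc5 was at 0 counts in 2 libraries. Each ratio was compared by a two-sided exact permutation test; with 4 libraries a group there are 70 arrangements, and no p can go below 0.0286.

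The Gpc4 over Gpc3 ratio of FPKM was 0.123, 0.0802, 0.134 and 0.191 in the WT_BLM libraries (replicates 1 to 4) and 0.0430, 0.0622, 0.0493 and 0.0588 in KO_BLM. Every KO_BLM library had less Gpc4 per Gpc3 than every WT_BLM library, a difference of -1.26 in mean log2 ratio (exact permutation p = 0.0286). The Sdc2 over Sdc4 ratio of FPKM was 0.274, 0.235, 0.299 and 0.230 in WT_BLM and 0.384, 0.403, 0.378 and 0.328 in KO_BLM. Every KO_BLM library had more Sdc2 per Sdc4, a difference of 0.53 in mean log2 ratio (exact permutation p = 0.0286).

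The Sdc1 over Sdc3 ratio of FPKM spanned 1.82 to 3.17 in the WT_BLM libraries and 2.13 to 3.92 in the KO_BLM libraries. These ranges overlapped, with a difference of 0.28 in mean log2 ratio (exact permutation p = 0.314). Benjamini-Hochberg adjustment over the 4 planned pairs, with the pair of no value entered as 1, gave 0.0571 for the Gpc4 and Sdc2 ratios and 0.419 for the Sdc1 ratio in these exact permutation tests; over the 3 pairs with a value it gave 0.0429 and 0.314. The first 2 ratios thus stand above the 0.05 threshold or below it according to the number of pairs counted.

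**Figure D4:**
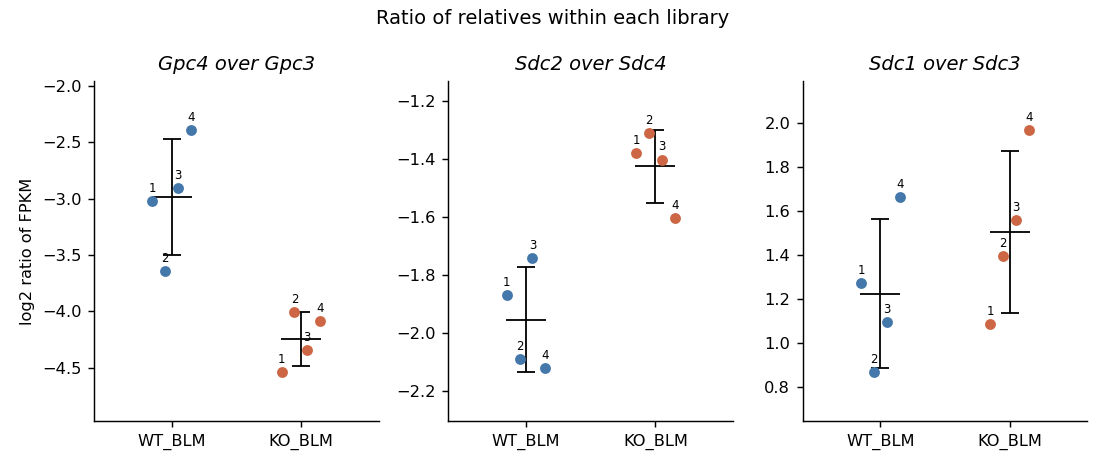
Log2 ratio of FPKM of 2 relatives in each library (y axes, not from 0); points are libraries with their replicate number, the wide line is the mean and the bars are 1 SD (n = 4). Gpc4 over Gpc3 separates the groups downwards in KO_BLM (difference -1.26), Sdc2 over Sdc4 upwards (0.53), and Sdc1 over Sdc3 overlaps (0.28).

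A set of 8 lists covered genes that build, trim and release heparan sulfate, cytoplasmic partners of syndecans and other heparan sulfate proteoglycans. The lists were chosen with earlier results of these data known. They held 78 genes, of which 71 were tested. Of these 37 fell in KO_BLM and 6 rose, 60.6% of those tested beside 41.5% of all genes, with a median log2 fold change of -0.34 beside 0.0025. With library totals alone 29 fell and 6 rose, and over all alternatives 27 to 37 fell. For each list below, the counts stand beside 20.8% of all genes called lower and 20.7% called higher.

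In chain polymerisation, 4 of 5 genes fell and 0 rose. Ext1 and Ext2, the subunits of the polymerase, fell from 117 ± 13.0 to 51.5 ± 4.39 CPM and from 125 ± 5.23 to 94.2 ± 5.67 CPM (SD, n = 4 each; edgeR adjusted p = 4.5e-05 and 0.00235). Extl2 (log2 fold change -0.67) and Extl3 (-0.32) also fell, but Extl3 lost its call in 7 of 17 alternative fits (adjusted p 0.0520 to 0.0684). These were edgeR with library totals alone or without WT_BLM replicate 2, WT_BLM replicate 3 or KO_BLM replicate 3, and 3 limma fits. Of 13 genes for the linker and the precursors, 5 fell and 1 rose, beside 20.8% and 20.7% of all genes. The median log2 fold change of this list was -0.097, and -0.006 with library totals alone. Papss2, which makes the sulfate donor (-0.63), Ugdh, which makes UDP-glucuronate (-0.53), and Slc35b2, which carries the sulfate donor into the Golgi (-0.43), fell on the log2 scale. B3gat3, which adds the last sugar of the linker, rose (0.38).

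Of 10 tested N-deacetylase, epimerase and sulfotransferase genes, 3 fell and 2 rose, beside 20.8% and 20.7% of all genes. The median log2 fold change of this list was -0.05. The 6-O-sulfotransferase Hs6st1 fell from 111 ± 11.7 to 60.7 ± 6.45 CPM (SD, n = 4 each; edgeR adjusted p = 0.000278), and the epimerase Glce fell by 0.35 on the log2 scale. The 3-O-sulfotransferases Hs3st1 (log2 fold change 0.65) and Hs3st6 (1.01) rose. With limma on log2(FPKM + 1) 1 gene of the list fell, and Glce lost its call in 3 limma fits and in edgeR without KO_BLM replicate 3 (adjusted p 0.0523 to 0.0576). Both extracellular 6-O-sulfatases, Sulf1 (log2 fold change -0.75) and Sulf2 (-0.63), fell, while heparanase, Hpse, with -0.19, and Hpse2 with -0.09 were not called. Sulf2 lost its call in limma without a filter (limma adjusted p = 0.0572).

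In lysosomal breakdown of the chains 5 of 8 genes fell and 1 rose. Hgsnat (log2 fold change -0.73) and Naglu (-0.52), which act on glucosamine residues, fell, and the iduronidase Idua rose (0.40). Among genes of core protein processing, shedding and anchor release, 9 of 16 fell and 1 rose. The syndecan-shedding protease Mmp14 fell from 537 ± 36.6 to 154 ± 26.0 CPM and the glypican-processing convertase Furin from 343 ± 52.5 to 149 ± 11.6 CPM (SD, n = 4 each; edgeR adjusted p = 1.3e-05 and 8.8e-05). The convertase Pcsk6 (log2 fold change -1.13) and the anchor-cutting Notum (-0.81) fell too.

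Of 8 cytoplasmic partners of syndecans, 5 fell: among them Tiam1 (log2 fold change -0.79), the syntenin gene Sdcbp (-0.47), Cask (-0.45) and Arhgdia (-0.30). This count rested on the fit, with 1 of 8 lower under library totals alone and 0 of 8 in edgeR without KO_BLM replicate 2. Cask lost its call in 9 of 17 alternative fits, Tiam1 in 6, Sdcbp in 5 and Arhgdia in 3. Among 7 other heparan sulfate proteoglycans, 4 fell and 1 rose. The basement membrane cores Col18a1 (log2 fold change -1.36) and Hspg2, perlecan (-0.74), and the hyaluronan receptor Cd44 (-0.62) fell, and the semaphorin and VEGF co-receptor Nrp1 rose (0.31).

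**Figure D5:**
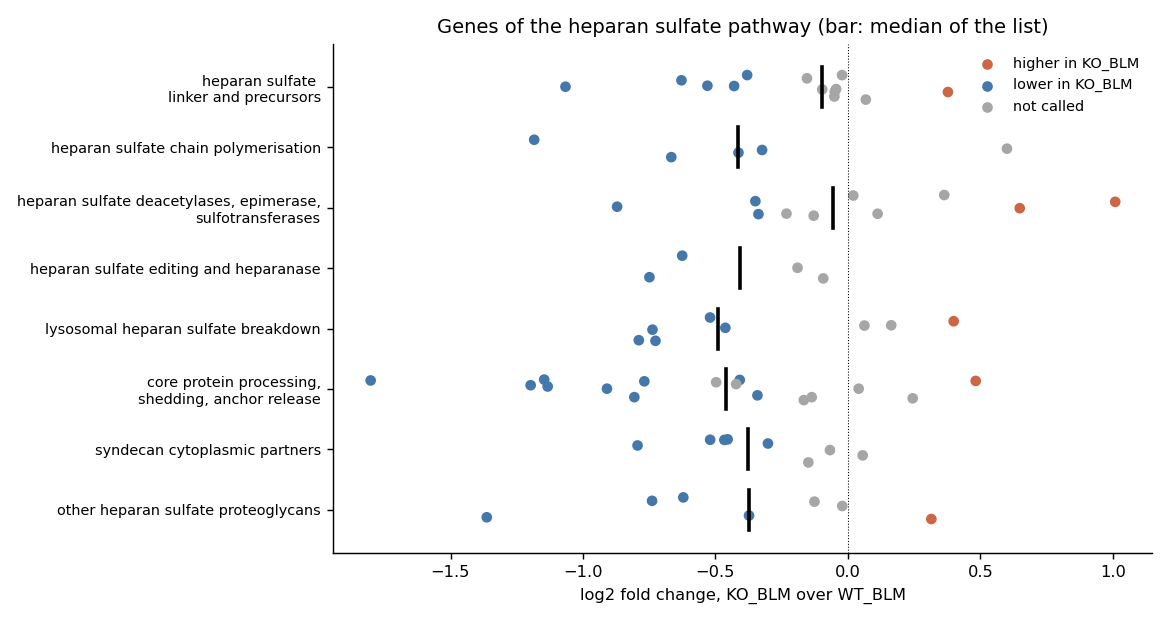
Log2 fold change, KO_BLM over WT_BLM (x axis), of the 71 tested genes in 8 lists (rows). The lists hold heparan sulfate pathway genes, syndecan partners and other heparan sulfate proteoglycans. Points are spread vertically only for legibility, and bars are list medians. Blue points (37) fell, orange points (6) rose and grey points (28) were not called; Mmp14 (-1.80) is the lowest and Hs3st6 (1.01) the highest.

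Markers of lung cell types also differed between the groups, and their part in these results was not tested. Of 17 marker lists, 6 had summed CPM lower and 6 higher in every KO_BLM library than in every WT_BLM library, and 5 overlapped. Of all tested genes, 40.9% had ranges that did not overlap, 20.8% were called lower and 20.7% higher. No list held a marker at 0 in every library. A summed CPM weighs abundant markers most. Pericytes were among the lower sums, yet their median log2 fold change was 0.30, with 2 of 6 markers called lower and 1 higher. Adventitial fibroblasts also had a lower sum, with 3 of 7 markers called lower and 2 higher. The 7 activated fibroblast markers summed to 3123 to 3660 CPM in WT_BLM and 794 to 862 CPM in KO_BLM, and 7 of 7 fell (Cthrc1 -2.96, Col1a1 -2.46 and Postn -0.41 in log2 fold change). The 7 macrophage markers summed to 1687 to 1770 CPM and 529 to 1076 CPM, and 7 of 7 fell (Mrc1 -1.47, Adgre1 -0.997 and Csf1r -0.48).

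Markers of epithelium, which carries Sdc1 and Sdc4, moved in both directions, but among the epithelial lists only the transitional list had markers called lower. The 6 markers of transitional alveolar epithelium summed to 1917 to 2382 CPM in WT_BLM and 1069 to 1393 CPM in KO_BLM, and 6 of 6 fell (Krt8 -0.68, Krt18 -0.74 and Krt19 -0.38 in log2 fold change). The 9 alveolar type 2 markers summed to 8766 to 12794 CPM and 22670.2 to 35199.8 CPM, and 8 of 9 rose (Sftpc 1.50, Sftpb 0.78 and Sftpa1 1.94). The 6 ciliated cell markers summed to 130 to 206 CPM in WT_BLM and 470 to 605 CPM in KO_BLM, and 6 of 6 rose. Of 4 club cell markers 3 rose and 0 fell. Of 7 alveolar type 1 markers 2 rose and 0 fell, and their sums overlapped. The 8 resident alveolar fibroblast markers summed to 1625 to 2597 CPM and 3567 to 5131 CPM, and 7 of 8 rose (Npnt 0.77, Tcf21 1.69 and Inmt 2.18). Plasma cells also carry Sdc1; their 7 markers summed to 405 to 803 CPM in WT_BLM and 397 to 1435 CPM in KO_BLM, with 2 of 7 called higher and 0 lower.

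For the 4 members of smallest p, the tested genes nearest in profile over the 8 libraries were found by the root mean square difference of centred log2 CPM, among 13789 candidates. Nearest to Gpc1 were the galectin gene Lgals1 (root mean square difference 0.192) and the early growth response gene Egr3 (0.199). Nearest to Gpc4 were Tatdn2 (0.0649) and the lysophosphatidic acid receptor Lpar2 (0.0734). Nearest to Sdc3 were the sphingosine-1-phosphate receptor S1pr3 (0.0838) and Pusl1 (0.102), and nearest to Sdc4 the mitochondrial chaperone Hspa9 (0.0564) and the helicase Dhx9 (0.0661). Gpc1 had no neighbour as near as those of the other 3 members. The 8 libraries differ in group, depth and scaling. A near profile can thus come from a like difference between the groups, and shared regulation was not tested.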

How the data were processed

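RNA of 8 mouse lung samples was extracted with TRIzol and made into stranded TruSeq mRNA libraries, per the labels' protocols. The authors deposited raw read counts per gene, and FPKM values that equal count over column total over 1 length per gene for 100% of genes (relative tolerance 1e-04). Trimmomatic, HTSeq, Cufflinks, DESeq and the mm10 build are listed, without roles, per the submitters' processing notes. The aligner, annotation and strand setting were not given in the sources used here. Columns were matched to samples by group and replicate number, PHT2 being another name of SLC15A3.

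All genes were tested together with edgeR 4.0.16 in R 4.3.3 (TMM, filterByExpr with minimum count 10 and minimum total 15, robust quasi-likelihood fit, Benjamini-Hochberg at 0.05), after a test on simulated data. CPM use TMM-scaled totals, and SE was computed as log2 fold change divided by the root of F. Ratios used exact permutation tests (scipy 1.17.1). No 2 libraries of a group were duplicates: chi-square divided by its degrees of freedom was 7.48 to 58.1. Alternatives were RLE factors, library totals, other filters, DESeq2 1.42.0, limma 3.58.1 on log2(FPKM + 1) or log2(FPKM + 0.1), a block on replicate number and each library left out. Gene lengths from GENCODE and adjustment over 3 pairs were added after the data were seen.

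The members, the 8 pathway lists, the 17 marker lists and the rule for named genes (all members, Slc15a3, up to 4 genes of smallest p per pathway list, the first 3 of each marker list, and 2 nearest profiles for each of 4 members) were chosen with earlier results of these data known. Markers of 5 lists were picked for naming after their values were seen, and in the pathway lists no gene outside the rule was named. Of the genes the rule takes from the pathway lists, 1 is not reported here. Nearest profiles were sought above a mean of 1 CPM, leaving out members, predicted genes, pseudogenes and antigen receptor segments.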

Additional observations from a re-analysis of the deposited data

Results flagged for a closer look

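Each value was set against the other 3 libraries of its group, and 3 of 84 groups of 4 held a library set apart by more than Dixon's 95% critical value; chance flags about 1 in 20 groups. Gpc1 was at 62.1 CPM in WT_BLM replicate 4, while the other WT_BLM libraries lay between 93.2 and 95.1 CPM. Sdc4 made up 30.5% of the summed syndecan FPKM in KO_BLM replicate 3, against 35.5% to 36.0% in the other KO_BLM libraries. The 7 macrophage markers summed to 1687 CPM in WT_BLM replicate 2, against 1758 to 1770 CPM in the others.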

How the results depend on the processing

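Across 17 alternative fits, Sdc2, Sdc3, Sdc4, Gpc1, Gpc2 and Gpc4 stayed on their side of the 0.05 threshold, as did Gpc6 in the 15 that could test it, and no member changed sign. Sdc1 lost its call with library totals alone (log2 fold change -0.29) and in each of 3 limma fits on FPKM (-0.30). With 1 library left out it ran from -0.45 to -0.32 (edgeR adjusted p 0.0195 to 0.0821) and lost its call in 4 of 8 fits. Gpc3 ran from 0.20 to 0.43 with 1 library left out and was called without WT_BLM replicate 2. The cause was not tested. Under the replicate block 5 members were called, with Sdc1 at -0.39 (edgeR adjusted p = 0.0323) and Gpc1 at -1.66 (0.000898); samples with the same number did not deviate together (r -0.0922 to 0.0887, 1 of 4 best with its own number), so the numbers were not taken as pairs, and the block changed no call of a member.

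The ratio differences of -1.26 (Gpc4 over Gpc3) and 0.53 (Sdc2 over Sdc4) passed the threshold only when adjusted over 3 pairs. With 1 library left out, 3 against 4 can give no p under 0.0571, so these are values: -1.47 to -1.06, 0.47 to 0.60 and, for Sdc1 over Sdc3, 0.12 to 0.42.

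GENCODE lengths gave shares, WT_BLM then KO_BLM, of 63.0% and 82.1% for Gpc3, 21.4% and 11.4% for Gpc4, 14.3% and 4.79% for Gpc1 and 39.4% and 38.8% for Sdc4, and 35.0% for Sdc1 in WT_BLM, and a syndecan sum of 233 FPKM in KO_BLM; this follows from the lengths alone. Counts limit Gpc5 (10 in all), Gpc2 (556) and Gpc6 (717).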
